A study of Mus musculus with 12 samples.

Results

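The question was which mRNAs changed in translation efficiency (TE) when neural stem cells (NSCs) were grown in a high rather than a medium concentration of folic acid. TE is the amount of an mRNA on polysomes, which are mRNAs loaded with several ribosomes, divided by its amount in total mRNA. The comparison used the 8 of 12 libraries labelled MF or HF, in total and in polysome mRNA, and covered the 14243 of 43432 listed genes that had enough counts in them. The change in TE was the log2 ratio of polysome to total mRNA at HF minus the same log2 ratio at MF. A positive value therefore means a higher polysome share per mRNA in HF.

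The cells were adult NSCs taken out of the subventricular zone, the germinal layer beside the lateral ventricles, of male WT C57BL/6 mice aged 6 to 8 weeks. They grew as a monolayer for 4 days with folic acid at 10 µM (MF) or at 80 µM (HF), and both groups shared strain, genotype, sex and culture time. Each of the 4 groups (total MF, total HF, polysome MF, polysome HF) held 2 libraries of poly(A) RNA, and the polysome libraries came from pooled sucrose gradient fractions with more than 3 ribosomes per mRNA. The study calls the replicates biological, and neither it nor the labels tie them to separate animals or cultures, so p-values reflect nothing but how far these libraries lay apart.

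Ribosomes do not load all mRNAs alike. Secondary structure, the bases around the start codon, upstream reading frames and RNA-binding proteins set how often a message is translated, and cells change this loading within minutes under stress or when nutrients shift. Folic acid feeds the one-carbon cycle, which makes nucleotides and the methyl donor for RNA, DNA and protein. NSCs of the subventricular zone divide, make transit-amplifying cells, which express Dlx factors, and give rise to neuroblasts that express doublecortin (Dcx), with Notch signalling holding some cells in the stem cell state.

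The depth was 20506797 to 23089647 counts in the 4 total libraries and 25715180 to 28170296 in the 4 polysome libraries. Pearson r of log2 CPM (counts scaled to library size) across genes was between 0.99 and 0.993 for the replicates of each group. Replicate polysome libraries differed more than replicate total libraries, with a biological coefficient of variation of 0.115 in the 4 polysome libraries and 0.0376 in the 4 total libraries. The mRNAs of the mitochondrion, which cytosolic ribosomes do not read, took 2.74% to 2.98% of the total counts and 0.3% to 0.725% of the polysome counts. Nes and Sox2, the usual markers of NSCs, and the 18 other listed NSC markers were all tested, and 8 of 10 microglia markers did not reach the count filter. Of these 8, Aif1, Cx3cr1, C1qa, C1qc and Trem2 had 0 counts in all 8 libraries and C1qb, Csf1r and Itgam at most 1, 5 and 7, while the tested P2ry12 and Tmem119 summed to 5.5 to 8.3 CPM in total and 16.0 to 19.9 CPM in polysome libraries.

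The sequences around the start codon of 12 of the genes described below are printed first. They were chosen after the values were seen, to show side by side messages that rose and messages that fell, because the base composition of the mRNAs turned out to differ between both directions. Each window holds 12 bases before the start codon, the start codon in capitals, and 9 bases after it, 5′ to 3′, with T for U. The windows come from GENCODE release M21 transcripts, and the position is that of the start codon in mm10. The first 6 belong to genes whose TE was higher in HF and the last 6 to genes whose TE was lower.
Lum, chr10:97568245-97568247, plus strand: gacttgctgaaaATGaatgtatgt
Dcn, chr10:97483363-97483365, plus strand: catgagataatcATGaaggcaact
Edn1, chr13:42301895-42301897, plus strand: cccctttgcagaATGgattatttt
Fbln5, chr12:101818748-101818750, minus strand: cgcatcttggatATGccaggatta
Acta2, chr19:34252551-34252553, minus strand: gctgctccagctATGtgtgaagag
Tagln, chr9:45931759-45931761, minus strand: ctctgcctcaacATGgccaacaag
Dll1, chr17:15375238-15375240, minus strand: tccagcggtaccATGggccgtcgg
Hes6, chr1:91413135-91413137, minus strand: gctccgtagaccATGgctccgtcc
Dlx1, chr2:71529994-71529996, plus strand: ccgcgagaagagATGaccatgacc
Dlx2, chr2:71546390-71546392, minus strand: tcccgggtcaggATGactggagtc
Kcnc1, chr7:46397678-46397680, plus strand: gggggcgccgcgATGggccaaggg
Wnt7b, chr15:85581448-85581450, minus strand: cctccctggatcATGcacagaaac

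G and C made up 33.3% of the window of Lum, 37.5% of those of Dcn and Edn1 and 45.8% of that of Fbln5. They made up 83.3% of the window of Kcnc1, 70.8% of that of Dll1 and 66.7% of that of Hes6. Wnt7b, whose TE was lower, had 54.2%, the same as Acta2 and Tagln, so the windows of both directions overlapped in composition. The median over windows was 54.2% for the 89 genes called higher, 66.7% for the 118 called lower and 58.3% for the 12566 tested. The windows of Lum, Dcn, Edn1 and Fbln5 thus lay below the median of the genes called higher. Those of Kcnc1 and Dll1 lay above the median of the genes called lower. The favoured Kozak bases were about as common in the called genes as in all genes. A purine stood 3 bases before the start codon in 89.9% of the 89 protein-coding genes called higher, in 84.7% of 118 called lower and in 86.4% of 12566 protein-coding genes tested.

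The called genes higher in HF included Acta2, Tagln and Myl9 of contractile cells, the matrix genes Lum, Dcn and Fbln5 and the chaperone Hspa5, and those lower included Dcx, Gad2, Dlx1 and Dlx2 of neuronal differentiation, the Notch ligands Dll1 and Dll3 and the Wnt ligand Wnt7b. Genes of the same kinds were also called the other way, with Stmn2 of neuronal differentiation higher and the matrix genes Bcan and Ncan lower. In all, 217 genes passed both thresholds (adjusted p under 0.05, fold change above 1.2) and are named called here, which was 1.52% of the genes tested. Of these, 94 were higher (0.66%) and 123 lower (0.864%). The quasi-likelihood test of edgeR gave the p-values, adjusted by Benjamini-Hochberg over all genes tested. The fold change was above 2 for 35 of the genes called higher and for 17 of those called lower. The median over all genes tested was 0.00 on the log2 scale.

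These counts depended on which libraries and which scaling were used. The genes called higher made up 43.3% of the calls with TMM scaling, 64.4% with RLE size factors, 65.6% with DESeq2, 62.4% with a trend on gene length removed and 78.5% with a trend on GC content removed. Without 1 library, between 3 (total HF replicate 1) and 1472 (polysome HF replicate 1) genes were called. The other counts were 4 without total MF replicate 2, 9 without total MF replicate 1, 19 without total HF replicate 2, 44 without polysome MF replicate 1, 775 without polysome MF replicate 2 and 232 without polysome HF replicate 2. In each of these fits all 217 genes kept the sign of their change. That gives the calls no support, because these fits reuse libraries that picked the genes. The genes named below were picked by a rule on size and on membership of the lists, and among them Kcnc1 and Plscr2 kept their call without any single library and Fbln5 kept it in 7 of 8 such fits. Of all 48 named calls, 3 remained without total MF replicate 2, 3 without total HF replicate 1, and 47 without polysome HF replicate 1. In a fit of all 12 libraries, which adds the LF libraries at 1.5 µM, 0 genes were called by edgeR, so none of the calls below held there.

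Most of the change came from the polysome side. In the same fit, 2391 genes (16.8%) differed in polysome mRNA between HF and MF, 1112 up (7.81%) and 1279 down (8.98%), while total mRNA gave 0 calls in edgeR (0% of the genes tested), with 309 genes at an unadjusted p under 0.05. DESeq2 called 5 genes in total mRNA, and the 4 total libraries alone gave 34. At the same thresholds the study, with DESeq2, reports Acta2, Fbln5, Slit3, Col8a1, Ogn and Ptch1 lower in total mRNA of HF. It reports Ednrb and Rpl14-ps1 higher, and followed up its total mRNA calls by RT-qPCR. Of these genes, Acta2, Fbln5, Slit3, Col8a1 and Rpl14-ps1 were called higher in TE here. The 4 polysome libraries alone, whose spread was not pooled with that of total mRNA, gave 707 calls. The polysome and TE values share the same polysome libraries and are given side by side only.

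**Figure D1:**
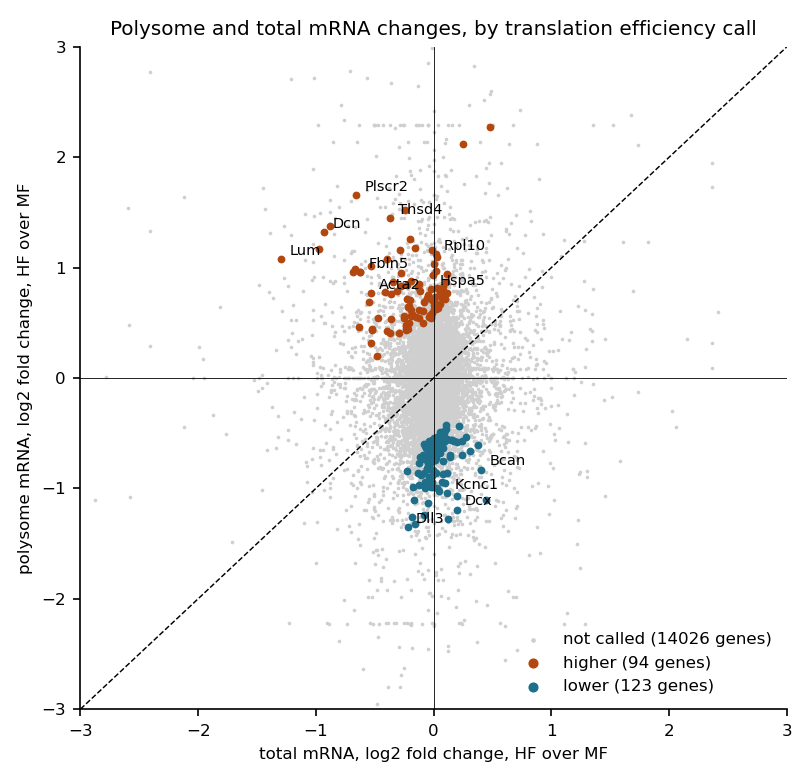
Log2 fold change of polysome mRNA (vertical axis) against that of total mRNA (horizontal axis), HF over MF, for the genes tested. Each point is a gene, coloured by its TE call, and on the dashed line TE did not differ. The 94 genes called higher lie above the line and mostly left of 0 for total mRNA, and the 123 called lower lie below it around 0. The axes end at 3, and 93 genes, 3 of them called, lie outside.

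The genes called higher and lower differed in their total mRNA values. Among the 94 called higher, the median change was 0.73 in polysome mRNA and -0.19 in total mRNA, 71 had opposite signs on the 2 sides, and of 33 with an unadjusted p under 0.05 in total mRNA 32 were lower in HF there. Among the 123 called lower, the median change was -0.70 in polysome mRNA and 0.01 in total mRNA, and 10 had an unadjusted p under 0.05 in total mRNA. In polysome mRNA the HF libraries both lay above the MF libraries for all 94 genes called higher, against 26.1% of the genes tested. They both lay below for all 123 called lower, against 26.8% of the genes tested. These values are part of the contrast that made the calls and are a description.

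Of 17 listed markers of mural and mesenchymal cells, the contractile and matrix-making cells around vessels, 13 were tested, and 5 were called higher and 0 lower (38.5% of those tested, against 0.66% of all genes). The list's median change was 0.82 in TE, 0.43 in polysome mRNA and -0.39 in total mRNA, against medians of 0.00, 0.00 and 0.01 over all genes. The called members were the matrix proteoglycans Lum and Dcn, the smooth muscle actin Acta2, the actin-binding protein Tagln and the myosin light chain Myl9.

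Acta2 had 40.6 and 45.3 CPM in total MF, 25.6 and 33.8 in total HF, 264 and 236 in polysome MF and 388 and 463 in polysome HF. In total mRNA both HF libraries were below both MF libraries, and in polysome mRNA both were above. Its TE was 2.46-fold higher in HF (SE 0.187 on the log2 scale, adjusted p = 0.0121). Tagln followed the same order, with 24.98 and 28.2 CPM in total MF, 18.1 and 21.8 in total HF, 157 and 155 in polysome MF and 245 and 290 in polysome HF (2.29-fold higher TE, SE 0.161 on the log2 scale, adjusted p = 0.00958). Tagln overlaps Pcsk7 on the other strand, and no source used here states whether the counting used strand.

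Lum and Dcn, small proteoglycans that bind collagen fibrils, showed the largest values of this list at low counts. Lum had 42 and 51 counts in total MF, 18 and 21 in total HF, 102 and 105 in polysome MF and 188 and 223 in polysome HF. The change in TE was 2.37 ± 0.336 (log2, SE, adjusted p = 0.0121), made of 1.08 in polysome mRNA and -1.29 in total mRNA. Dcn had 25 and 29 counts in total MF, 9 and 20 in total HF, 70 and 83 in polysome MF and 154 and 204 in polysome HF. Both genes were thus lowest in total HF and highest in polysome HF, with no overlap between the doses in either fraction. For Dcn the change in TE was 2.25 ± 0.473 (adjusted p = 0.0391). Myl9 rose 1.77-fold in TE (log2 0.82 ± 0.156 SE, adjusted p = 0.0291). Of the 8 fits without 1 library, 6 kept the call of Tagln, 5 those of Acta2 and Lum, 4 that of Myl9 and 2 that of Dcn.

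The other 8 tested members did not pass. Col1a2, a chain of type I collagen and the most abundant of the list, changed by 0.25 ± 0.163 (log2 TE, SE, adjusted p = 0.451), and Pdgfrb, the receptor of pericytes, by 0.46 ± 0.146 (adjusted p = 0.124). Col1a1 (-0.29), Tpm2 (-0.18) and Islr (-0.16) had negative values. The smooth muscle and pericyte markers Rgs5, Des, Myh11 and Cnn1 did not reach the count filter, and their highest counts in any of the 8 libraries were 6, 14, 9 and 11. The summed level of the 13 tested members was 1137 and 1200 CPM in total MF, 859 and 1012 in total HF, 1622 and 1519 in polysome MF and 1697 and 2017 in polysome HF. In bulk samples fewer cells of a type and less RNA per cell cannot be told apart. With the GC trend removed, 4 members were still called and the median was 0.75.

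**Figure D2:**
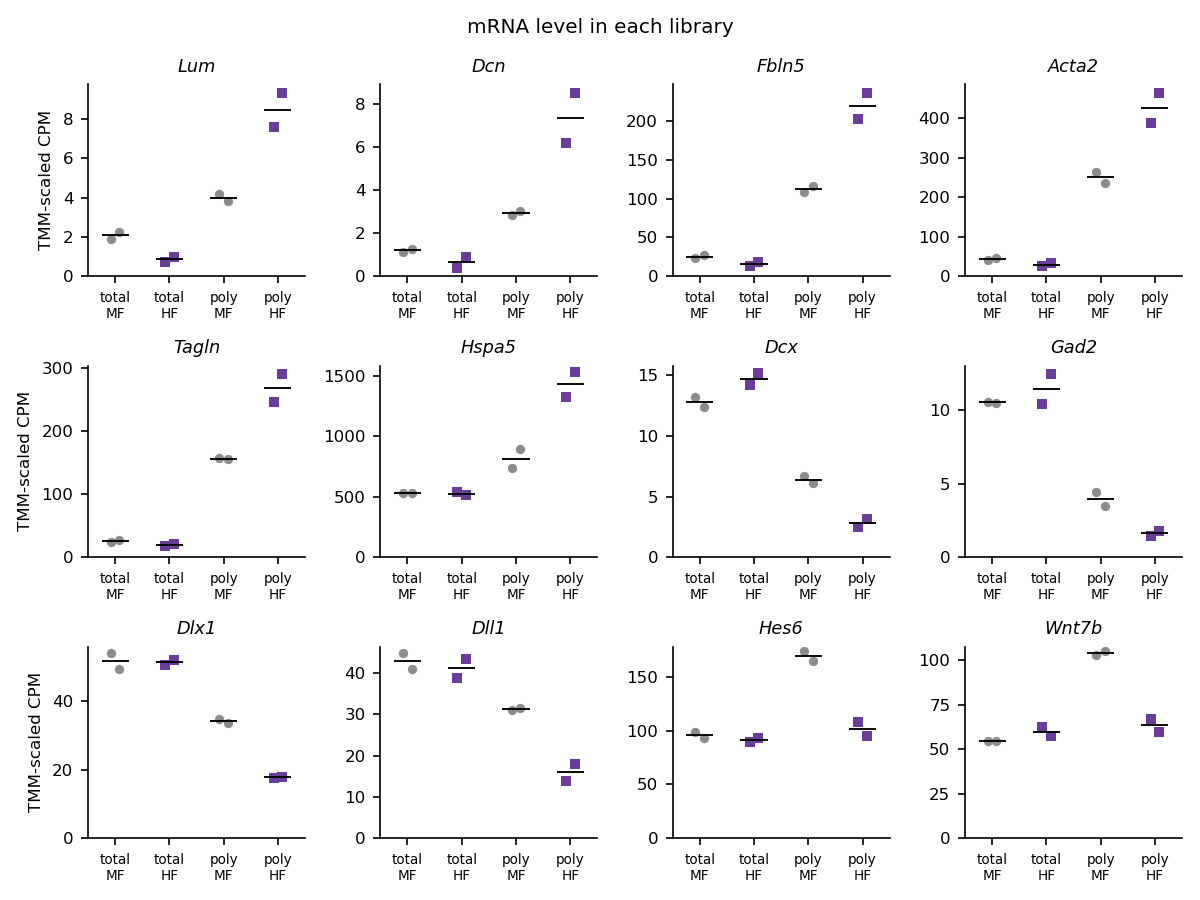
TMM-scaled CPM in each library for 12 of the named genes (vertical axes start at 0). Grey circles are MF libraries, purple squares HF libraries, and bars are means of 2 libraries. For Lum, Dcn, Fbln5, Acta2 and Tagln total mRNA was lower and polysome mRNA higher in HF, while for Dlx1, Dll1 and Hes6 total mRNA overlapped between the doses and polysome mRNA was lower.

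Secreted factors and matrix proteins moved in both directions. Of 68 tested members 7 were higher (10.3%, against 0.66% of all genes) and 4 lower (5.88%, against 0.864%), with a median change in TE of 0.13. Lum and Dcn are also in this list. Fbln5, a protein of elastic fibres, had 23.1 and 26.8 CPM in total MF, 13.7 and 18.8 in total HF, 109 and 116 in polysome MF and 203 and 236 in polysome HF. As in the mural genes, HF was below MF in total mRNA and above it in polysome mRNA, and TE was 3.01-fold higher (log2 1.59 ± 0.191 SE, adjusted p = 0.00703). Its call was lost only without total MF replicate 2 among the fits that leave out 1 library.

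The lower members with the largest changes were Bcan, Apoe and Nptx2. Bcan (brevican), a proteoglycan of the brain matrix, had 9.75 and 7.41 CPM in polysome MF and 4.87 and 4.76 in polysome HF, while total mRNA had 12.2 and 10.6 CPM in MF and 15.9 and 14.3 in HF (unadjusted p = 0.0212, not called). Apoe, the lipid carrier made by glia, had 722 and 644 CPM in polysome MF and 369 and 410 in polysome HF at a total level of 170 to 193 CPM (log2 TE -0.77 ± 0.139 SE, adjusted p = 0.0269). Nptx2, a secreted pentraxin of synapses, fell 1.68-fold in TE (adjusted p = 0.0163). Removal of the GC trend left 4 members of the list higher and 0 lower.

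Genes outside the lists also changed in opposite directions in both fractions. Plscr2, a phospholipid scramblase, had 4.89 and 4.81 CPM in total MF, 3.21 and 2.93 in total HF, 10.0 and 13.3 in polysome MF and 32.7 and 41.2 in polysome HF. Its TE was 4.97-fold higher (log2 2.31 ± 0.258 SE, adjusted p = 0.0055). Edn1, the vasoconstrictor endothelin 1, had 2.06 and 2.76 CPM in total MF and 1.13 and 1.33 in total HF, and went from 9.18 and 12.7 CPM in polysome MF to 24.6 and 24.7 in polysome HF (log2 TE 2.15 ± 0.313 SE, adjusted p = 0.0121). For both genes the doses did not overlap in either fraction.

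Further protein-coding genes with the largest increases were P2rx3, an ATP-gated channel, at 2.26 ± 0.481 (log2 TE, SE), Thsd4, a thrombospondin-domain protein, at 1.82 ± 0.229 and the lipid transporter Abca8a at 1.55 ± 0.290. Thy1, a surface glycoprotein, reached 1.47 ± 0.309, Steap1 1.46 ± 0.257, Pi15 1.45 ± 0.183, Uprt 1.34 ± 0.221 and the transcription factor Ebf1 1.22 ± 0.250, with adjusted p-values between 0.00716 and 0.0399 for these 8. P2rx3 rested on between 7 and 18 counts per total library and overlaps Ssrp1 on the other strand. Steap1 had 52.4 and 65.3 CPM in polysome MF and 123 and 160 in polysome HF, at total levels of 3.06 to 3.93 CPM that overlapped between the doses. Pseudogenes and predicted genes, among them Rpl14-ps1 (1.80) and Gm10698 (1.25), were also called higher and are uncertain, because read pairs can be divided between copies.

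**Figure D3:**
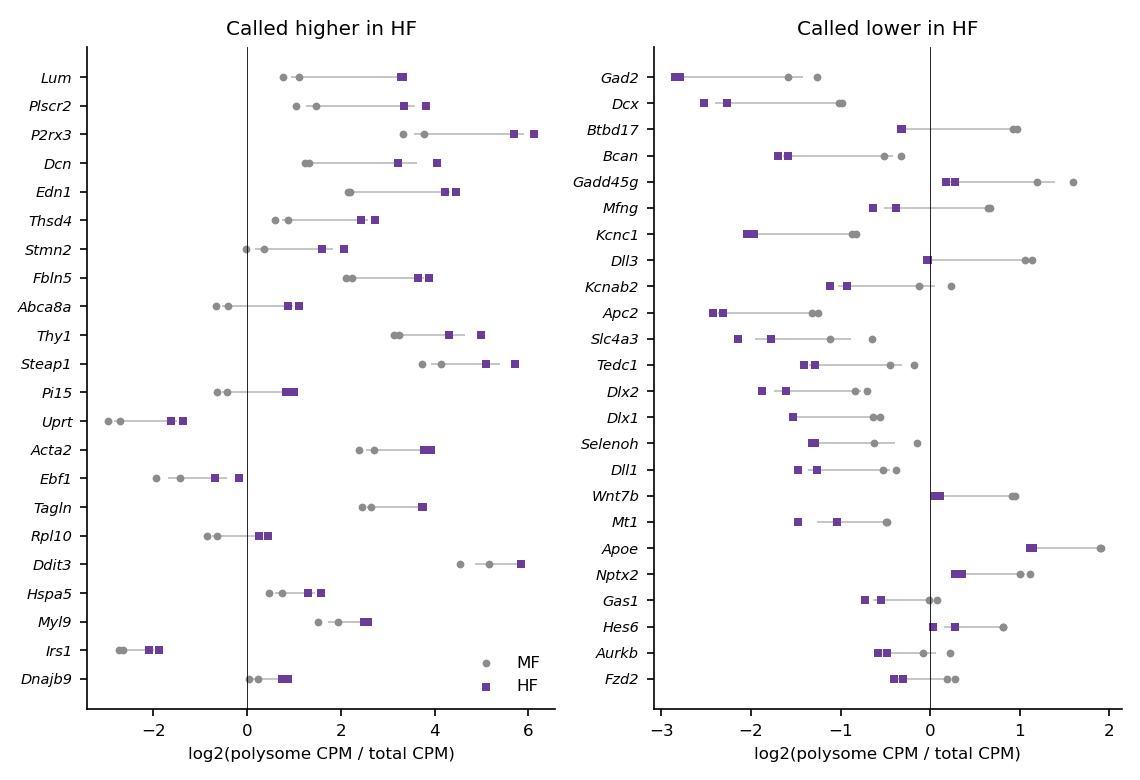
Log2 ratio of polysome CPM to total CPM (horizontal axes) for 46 named genes called higher (left) or lower (right) in HF. Each symbol sets a polysome library against the total library of the same dose and number, with grey circles for MF and purple squares for HF, and a line joins the means. Lum shows the largest rise drawn and Dcx and Gad2 the largest falls, while mt-Nd3 is left out because its polysome HF libraries are at 0.

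Among genes of neuronal differentiation, 27 of 39 tested had a negative value. Of the 39, 5 were lower (12.8%, against 0.864% of all genes) and 1 was higher, and the median change in TE was -0.29, with -0.30 in polysome mRNA and 0.01 in total mRNA. Those described here are Dcx, the microtubule-binding protein of migrating neuroblasts, Gad2, which makes the transmitter GABA, and the homeobox factors Dlx1 and Dlx2 of the GABAergic lineage.

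Dcx had 13.2 and 12.4 CPM in total MF, 14.2 and 15.1 in total HF, 6.65 and 6.13 in polysome MF and 2.46 and 3.13 in polysome HF. Both HF libraries were above MF in total mRNA (unadjusted p = 0.185) and below it in polysome mRNA, and TE fell 2.62-fold (log2 -1.39 ± 0.221 SE, adjusted p = 0.0161). Gad2 had 10.4 to 12.5 CPM in the 4 total libraries, 4.41 and 3.51 in polysome MF and 1.45 and 1.80 in polysome HF (log2 TE -1.40 ± 0.270 SE, adjusted p = 0.0305). Both kept their call with the GC trend removed, at -1.53 (adjusted p = 0.0209) and -1.48 (adjusted p = 0.036). Both mRNAs were below the median GC content of the genes called lower (57.6%), with 42.6% for Dcx and 47.4% for Gad2.

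Dlx1 lay between 49.2 and 54.0 CPM in all 4 total libraries, and fell from 34.8 and 33.5 CPM in polysome MF to 17.5 and 18.0 in polysome HF. Its change in TE was -0.93 ± 0.135 (log2, SE, adjusted p = 0.0121), uncertain in that its expected counts were not whole in 7 of 8 libraries. Dlx2 lay between 26.6 and 29.5 CPM in total mRNA and went from 17.1 and 16.1 to 8.70 and 8.02 CPM in polysome mRNA (-0.97 ± 0.160, adjusted p = 0.0186). In both genes total mRNA overlapped between the doses. After removal of the GC trend Dlx1 stayed called (-0.68, adjusted p = 0.0421), while Dlx2 did not (adjusted p = 0.0824).

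The member called higher was Stmn2, a microtubule regulator of growth cones, at 1.65 ± 0.357 (adjusted p = 0.0436), on 26 to 53 counts per total library. Tubb3, the tubulin of young neurons, did not pass, at -0.56 ± 0.201 (adjusted p = 0.172), nor did Map2 at -0.43 ± 0.116 (adjusted p = 0.0833). Removal of the GC trend left 3 members of the list lower and 0 higher. Of the 8 fits without 1 library, 4 kept the calls of Dcx and Dlx1, 3 those of Gad2 and Dlx2, and 2 that of Stmn2.

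In the Notch pathway, 4 of 31 tested genes were lower (12.9%, against 0.864% of all genes) and 0 higher, at a list median of -0.08. The 4 were the ligands Dll1 and Dll3, the glycosyltransferase Mfng, which modifies Notch receptors, and Hes6, a relative of the Notch target repressors. Dll1 had 38.8 to 44.9 CPM in the total libraries, 31.2 and 31.5 in polysome MF and 13.98 and 18.1 in polysome HF (log2 TE -0.91 ± 0.174 SE, adjusted p = 0.0305). Hes6 went from 174 and 164 CPM in polysome MF to 108 and 95.4 in polysome HF (-0.66 ± 0.127, adjusted p = 0.0305). Mfng changed by -1.16 ± 0.184 (adjusted p = 0.0161) and Dll3 by -1.13 ± 0.237 (adjusted p = 0.0391).

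The receptors and core factors of the pathway did not pass. Notch1 was at -0.23 ± 0.131, Notch2 at 0.12 ± 0.139, the ligand Jag1 at 0.39 ± 0.146, the DNA-binding partner Rbpj at 0.32 ± 0.121 and the target Hes1 at -0.08 ± 0.141 (log2 TE, SE). Of the 4 calls, that of Mfng remained with the GC trend removed (-0.95, adjusted p = 0.0337). Those of Dll1 (-0.68, adjusted p = 0.123), Dll3 (-0.82, adjusted p = 0.151) and Hes6 (-0.24, adjusted p = 0.394) did not. The list's median turned to 0.07 there, with 19 positive and 12 negative values, and to 0.01 without polysome HF replicate 2 or with a length trend removed.

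In the Wnt pathway, 3 of 43 tested genes were lower (6.98%, against 0.864% of all genes) and 0 higher, at a median of -0.22. The ligand Wnt7b had 54.5 to 62.4 CPM in total mRNA, 103 and 105 in polysome MF and 67.3 and 59.7 in polysome HF. Its TE fell 1.80-fold (log2 -0.85 ± 0.128 SE, adjusted p = 0.0128). Apc2, a relative of the scaffold that marks beta-catenin for destruction, changed by -1.08 ± 0.184 (adjusted p = 0.0217) and the receptor Fzd2 by -0.58 ± 0.131 (adjusted p = 0.0485). On the other strand Wnt7b overlaps AU022754 and Apc2 overlaps 2310011J03Rik. Ctnnb1, which encodes beta-catenin, was at 0.14 ± 0.186 and Gsk3b at 0.25 ± 0.110. Once the GC trend was removed, 0 of 43 were called, and Wnt7b was at -0.53 (adjusted p = 0.0633). In the Hedgehog pathway 1 of 14 was called lower (7.14%, against 0.864% of all genes). It was the receptor partner Gas1, at -0.67 ± 0.144 (adjusted p = 0.0421, and -0.16 with the GC trend removed). The Hedgehog list's median was -0.18, with 4 positive and 10 negative values. Among the positive ones, the receptor Ptch1 was at 0.52 ± 0.121 (adjusted p = 0.0547) and did not pass. DESeq2 called 1 of the 14 higher and 1 lower, against 322 higher and 169 lower of 14243 genes.

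Among the lower genes that no list held, Kcnc1, a fast potassium channel of neurons, had the smallest adjusted p. It lay between 123 and 136 CPM in total mRNA, at 69.0 and 69.0 in polysome MF and at 35.0 and 32.1 in polysome HF. Its TE fell 2.22-fold (log2 -1.15 ± 0.118 SE, adjusted p = 0.00439), and it stayed called with the GC trend removed (-0.93, adjusted p = 0.00884). Btbd17 was at -1.27 ± 0.177, the growth arrest gene Gadd45g at -1.16 ± 0.173, the potassium channel subunit Kcnab2 at -1.09 ± 0.226, the bicarbonate exchanger Slc4a3 at -1.07 ± 0.237 and Tedc1, a centriole protein, at -1.04 ± 0.192. Their adjusted p-values lay between 0.0121 and 0.0474, and Kcnab2 overlaps Nphp4 on the other strand. Btbd17 (-0.89, adjusted p = 0.047) and Gadd45g (-0.80, adjusted p = 0.047) stayed called with the GC trend removed, and Kcnab2, Slc4a3 and Tedc1 did not.

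Chaperones of the endoplasmic reticulum and genes of the unfolded protein response, which raise folding capacity under stress, had 2 of 24 called higher (8.33%) and 0 lower, at a median of 0.17. Over all genes 0.66% were called higher. Hspa5, the main chaperone of the compartment (BiP), lay between 511 and 539 CPM in total mRNA, at 739 and 891 in polysome MF and at 1325 and 1532 in polysome HF. Total mRNA overlapped between the doses, polysome mRNA did not, and TE was 1.78-fold higher (log2 0.83 ± 0.151 SE, adjusted p = 0.0269). Dnajb9, a co-chaperone of Hspa5, was at 0.66 ± 0.148 (adjusted p = 0.0485). Of the members not called, Calr (0.07 ± 0.155), Herpud1 (0.00 ± 0.131) and Hsp90b1 (0.18 ± 0.141) were close to 0. Others lay further from it, among them Atf6 (0.63 ± 0.183, adjusted p = 0.103), Ern1 (0.49 ± 0.141, adjusted p = 0.100) and Syvn1 (-0.53 ± 0.147, adjusted p = 0.088). Counting the called ones, 6 of 24 members had an unadjusted p under 0.05. With the GC trend removed Hspa5 stayed called (0.76, adjusted p = 0.0417) and Dnajb9 did not (adjusted p = 0.0835).

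Genes with upstream reading frames and targets of the stress factor ATF4 held 1 called member of 26, and 24 of 26 had a positive value, at a median of 0.25. In all genes tested 7146 of 14243 were positive, and 0.66% were called higher, against 3.85% of this list. Ddit3 (CHOP), a stress factor translated through an upstream frame, had 8.14 to 10.1 CPM in total mRNA, 235 and 311 in polysome MF and 522 and 465 in polysome HF. Its polysome to total ratio was thus high at both doses, and its TE was 1.97-fold higher in HF (log2 0.98 ± 0.208 SE, adjusted p = 0.0407). Ddit3 overlaps Mars on the other strand, and 1 of the 8 fits without a library kept its call (without polysome MF replicate 2). Atf4 itself was at 0.34 ± 0.127 (adjusted p = 0.182), and Ppp1r15a, which restarts translation after stress, at 0.95 ± 0.322 (adjusted p = 0.182). Once the GC trend was removed 0 of 26 were called, and the median was 0.38.

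Of 82 cytosolic ribosomal proteins 1 was called higher (1.22%, against 0.66% of all genes), Rpl10 of the large subunit, and the list's median was 0.04. Rpl10 lay between 257 and 287 CPM in total mRNA, at 157 and 164 in polysome MF and at 375 and 325 in polysome HF, so the doses overlapped in total mRNA and stood apart in polysome mRNA. Its change in TE was 1.11 ± 0.133 (log2, SE, adjusted p = 0.00703). The expected counts of Rpl10 were not whole in all 8 libraries, so some read pairs were assigned in part and its value is uncertain.

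Cell cycle genes had 1 call of 46, the mitotic kinase Aurkb (-0.61 ± 0.135, adjusted p = 0.0484), and 42 of 46 had negative values, at a median of -0.29. The share called lower was 2.17%, against 0.864% of all genes. The proliferation marker Mki67 was at -0.47 and the mitotic kinase Plk1 at -0.82 ± 0.187 (adjusted p = 0.0525, chosen after its value was seen). Removal of the GC trend left the median at -0.29 but ended the call of Aurkb (-0.49, adjusted p = 0.0948), which held in 2 of the 8 fits without 1 library. The 20 NSC markers had 0 calls in edgeR (7 at an unadjusted p under 0.05) and 1 in DESeq2, at a median of -0.23, with Nes at -0.61, Sox2 at -0.10 and Gfap at 0.28.

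The enzymes and carriers of folate and one-carbon metabolism had 0 called of 31 tested by edgeR (10 at an unadjusted p under 0.05), with 1 higher and 1 lower by DESeq2, and a median of -0.11, which was 0.01 with the GC trend removed. Tyms, which makes thymidylate with a folate cofactor, was at -0.30 ± 0.142 (adjusted p = 0.294), with expected counts that were not whole in all 8 libraries. The mitochondrial enzyme Mthfd2 was at 0.32 ± 0.124 (adjusted p = 0.201) and methionine synthase, Mtr, at 0.42 ± 0.179 (adjusted p = 0.241).

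Shmt1 and Shmt2, which pass one-carbon units between serine and folate, and Mthfd1, which interconverts folate-bound one-carbon units, lay between -0.15 and -0.04. The reduced folate carrier Slc19a1 was at -0.21 ± 0.169, the polyglutamating enzyme Fpgs at -0.22 ± 0.174 and the hydrolase Ggh at 0.34 ± 0.143. The sign turned with the GC trend removed for Shmt2 (0.15), Fpgs (0.03) and Slc19a1 (0.01), and that of Mthfd1 turned with DESeq2 and RLE size factors (0.02). Folr1, a folate receptor, had at most 5 counts in a library and was not tested. The writers and readers of the RNA mark 5-methylcytosine, a methylation fed by the same cycle, had 0 called of 10 by edgeR (3 at an unadjusted p under 0.05) and by DESeq2, at a median of 0.31, with the main mRNA writer Nsun2 at 0.32 ± 0.142 (adjusted p = 0.259) and the reader Alyref at -0.19 ± 0.127.

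**Figure D4:**
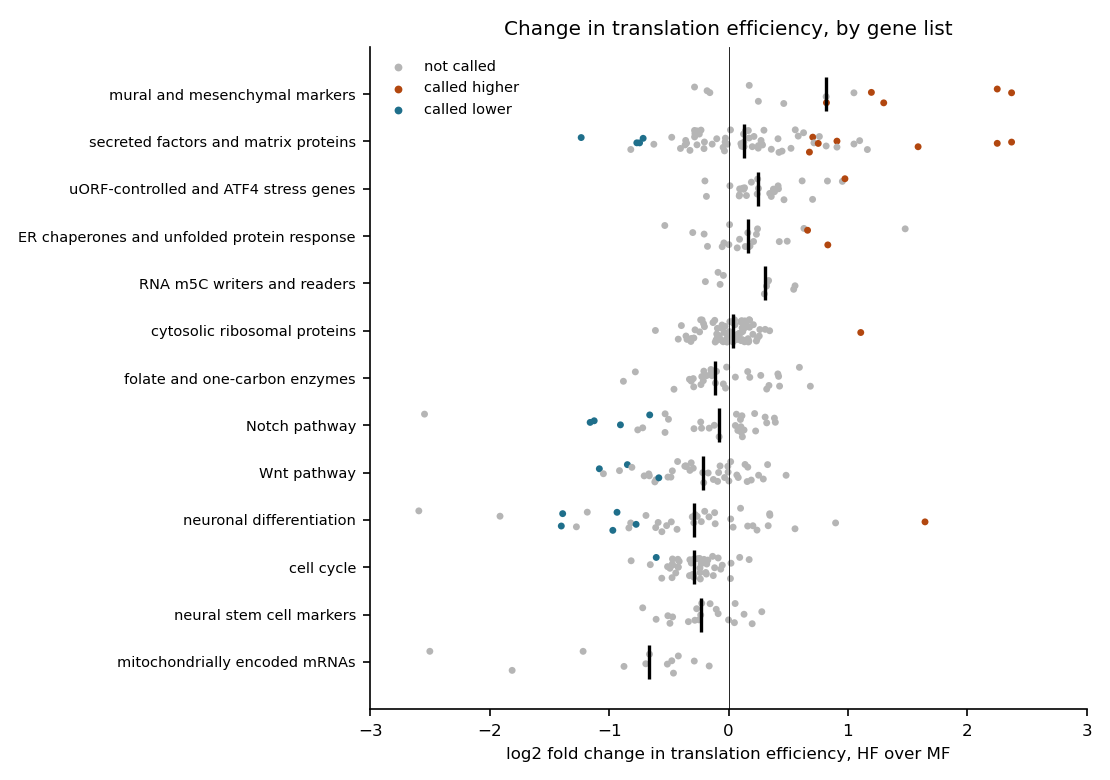
Log2 fold change in TE, HF over MF (horizontal axis), of the tested members of 13 gene lists. Each point is a gene, orange where called higher, blue where called lower and grey where not called, and the black bar is the list's median. Mural and mesenchymal markers have the highest of these medians (0.82) and mitochondrially encoded mRNAs the lowest (-0.66), with mt-Nd3 outside the axis.

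The 13 mRNAs encoded by the mitochondrion all had negative values, at a median of -0.66, and 1 was called lower (7.69%, against 0.864% of all genes). They are made and translated inside the mitochondrion, so their level in the polysome fraction is not a measure of cytosolic translation. Their summed level was 5616 and 7437 CPM in polysome MF and 6039 and 3283 in polysome HF, so replicate 2 of HF was low and replicate 1 lay within the MF range. Without that library the median was -0.10, and without polysome HF replicate 1 it was -1.53. The called gene was mt-Nd3, with 39 and 19 counts in polysome MF and 0 in both polysome HF libraries. With both polysome HF libraries set to 3 counts, the group means gave a 9.28-fold lower polysome mRNA and a 16.9-fold lower TE. The list's median stayed at -0.66 with this value of mt-Nd3. The counts of mt-Nd3 were not whole in 6 of 8 libraries, so the value is uncertain.

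Single calls stood in a few other lists, where over all genes 0.66% were called higher and 0.864% lower. Irs1, an adaptor of the insulin receptor, was the 1 edgeR call of 37 genes of the PI3K, AKT and mTOR pathway, at 0.71 ± 0.149 (adjusted p = 0.0391), and Gm9747 overlaps it on the other strand. DESeq2 called 5 of these 37 higher and 0 lower, against 322 higher and 169 lower of 14243 genes. The list's median in edgeR was -0.02. The expected counts of Irs1 were not whole in all 8 libraries, so its value is uncertain, and its call held in 3 of the 8 fits without 1 library. Mt1, a zinc-binding metallothionein, was the 1 call of 6, at -0.77 ± 0.162 (adjusted p = 0.0391). Selenoh was the 1 call of 20 selenoproteins, at -0.92 ± 0.185 (adjusted p = 0.0348). Both calls ended with the GC trend removed (adjusted p = 0.118 for Mt1 and 0.101 for Selenoh), and of the 8 fits without 1 library 1 kept that of Mt1 and 3 that of Selenoh. The study's western blots covered 3 genes, and none of these was called in this comparison. For Ptx3, a secreted pentraxin, the study reports higher TE and more protein in HF. Here its TE was at 1.16 ± 0.341 (adjusted p = 0.104), on 27 to 40 counts per total library. Its polysome mRNA was 2.51-fold higher in HF (adjusted p = 0.00213). The study's blots of the G protein subunit Gng11 and the complex I subunit Ndufa13 concerned LF. In HF against MF Gng11 was at 0.20 ± 0.223 and Ndufa13 at -0.43 ± 0.156 (adjusted p = 0.172). The lists of translation factors, iron-responsive and polyamine genes, nuclear subunits of the respiratory chain, glycolysis, nuclear long noncoding RNAs and markers of astrocytes, oligodendrocytes, microglia, endothelium and ependyma (12 lists, 162 genes tested) had 0 calls in edgeR, 23 genes at an unadjusted p under 0.05 and 3 calls in DESeq2.

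The called genes differed in base composition, which neither the calls nor the lists had used. Transcript GC content was taken for each gene as the mean over all its annotated transcripts. Its median was 57.6% for the 123 genes called lower and 47.7% for the 89 protein-coding genes called higher. Over the 12898 protein-coding genes with a value it was 50.8%. Of the 123 called lower, 84 (68.3%) lay in the highest of 5 equal bins of GC content and 3 in the lowest bin, and of the 89 called higher 4 lay in the highest and 29 (32.6%) in the lowest. Over all these genes the median change in TE was 0.18, 0.12, 0.03, -0.12 and -0.29 from the lowest to the highest bin. In total mRNA the same medians lay between -0.03 and 0.03.

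Spearman's rho across genes between GC content and the change was -0.48 for TE, -0.55 for polysome mRNA and -0.16 for total mRNA, and 0.12 between transcript length and TE. Genes are not independent replicates, and these values describe the 8 libraries. In each of the 4 ways of setting a polysome HF library against a polysome MF library, the difference correlated negatively with GC content, with rho between -0.61 and -0.46. Between the replicates of polysome MF it was 0.22 and between those of polysome HF 0.18, while between those of total MF it was 0.33 and between those of total HF -0.22. The trend with GC thus moved with dose in the polysome libraries and also differed between replicates of total mRNA, and its part in the TE calls was not tested apart from removing it.

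With the GC trend of each library removed, which was decided after seeing the data, 79 genes were called, 62 higher and 17 lower. Of these, 49 of the higher and 15 of the lower were among the calls without it, and all 217 kept their sign. Of the 48 named calls, 23 remained. Among the named genes whose call it ended, Apoe went to -0.43 (adjusted p = 0.251), Hes6 to -0.24, Fzd2 to -0.34 (adjusted p = 0.289), Nptx2 to -0.45 (adjusted p = 0.138) and Bcan to -0.87 (adjusted p = 0.121). The values of Lum (2.23), Edn1 (2.04), Thsd4 (1.92) and Fbln5 (1.51) stayed close to those without it, and their calls remained.

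**Figure D5:**
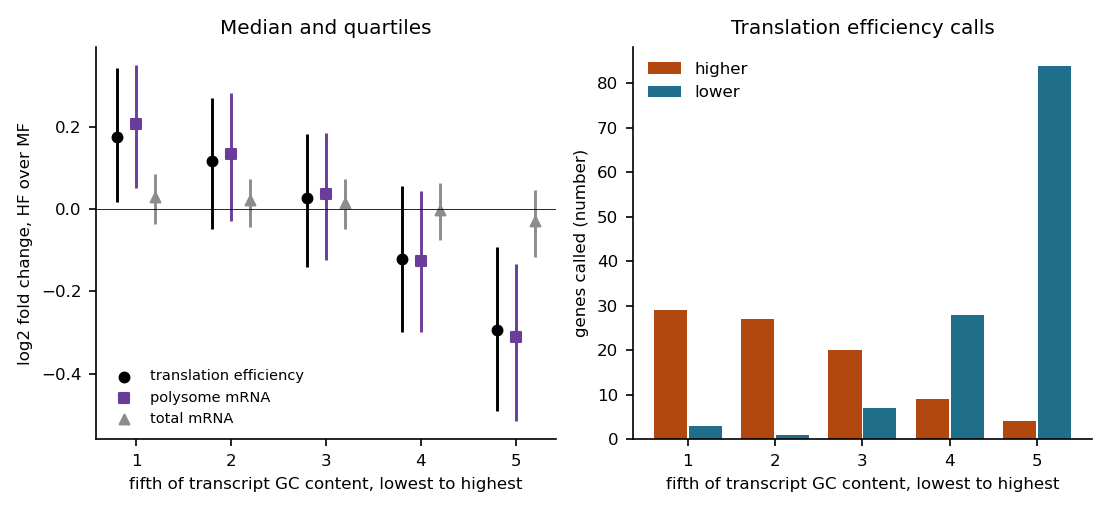
Left, median (symbols) and quartiles (lines) of the log2 fold change, HF over MF, of protein-coding genes in 5 equal bins of transcript GC content, for TE (black), polysome mRNA (purple) and total mRNA (grey). Right, the number of genes called higher (orange) and lower (blue) in TE in each bin. The median TE change falls from 0.18 to -0.29 from the lowest to the highest bin, and 84 of the genes called lower are in the highest bin.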

How the data were processed

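Total and polysome mRNA of mouse NSCs at MF and HF was sequenced in 2 libraries per group, and samples were grouped by their titles. Libraries were prepared with a stranded kit. By the study's methods and the labels, the authors aligned reads to mm10 with Bowtie2 2.2.9 and assigned them to genes with RSEM 1.3.0, which divides ambiguous read pairs by likelihood. Deposited expected counts are estimates, and 4.36% to 5.95% of the values in a library were not whole. Of 62 named genes, 12 had a value that was not whole in at least 1 library, and 10 overlapped another tested gene. Deposited TPM and FPKM values, and the deposited effective gene length, an other measurement, come from the same RSEM run of the authors. TPM and FPKM entered no test. The strand setting and annotation version were not given in the sources used here.

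Expected counts were rounded. Of 43432 identifiers, 42548 (97.96%) matched GENCODE M21 (also mm10), the source of symbols, positions, GC content and start codons. Genes passing filterByExpr (minimum count 10) went into edgeR 4.0.16 (R 4.3.3), with TMM scaling over the 8 libraries and a robust quasi-likelihood F test of the interaction (4 residual degrees of freedom) without a replicate block. Each standard error is the log2 change over the root of its F statistic. Calls used the study's thresholds, an adjusted p (Benjamini-Hochberg) under 0.05 and a fold change above 1.2. The study used Xtail, which was not used here. CPM values are TMM-scaled. No molecular identifiers were used, so PCR copies are counted and counting error understates the true error. By a chi-square test over genes, all replicate pairs differed by more than sampling noise (2.74 to 22.93 per degree of freedom), so each library counted as 1 replicate. The test code was tested on simulated data.

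The 30 gene lists, the named genes and the comparison itself were chosen with earlier results of these data known, and lists are described by counts and medians without a set test. Named genes are protein-coding, with a mean of at least 5 CPM and up to 12 of the largest called changes each way, and besides them called list members (for lists with over 6, the 3 largest each way), 3 western blot genes and 12 folate genes. Some named genes are not reported here. Other list members are named as examples, chosen after their values were seen. Alternatives were DESeq2 1.42.0, voom (limma 3.58.1), other scalings and filters, all 12 libraries, replicate blocks, trends on length or GC removed as lowess offsets, and leaving out each library.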

Additional observations from a re-analysis of the deposited data

How the results depend on the processing

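All 217 TE calls kept their sign under every alternative that gave them a value (215 with a mean of at least 1 CPM), and no called gene changed direction. The alternatives reuse libraries that picked these genes, so a kept sign is a description and gives the calls no support. Of 29 list medians, 11 took the other sign in at least 1 alternative, all of them between -0.15 and 0.38 as reported, among them Notch (0.07) and folate (0.01) with the GC trend removed and ribosomal proteins (-0.05) without polysome HF replicate 1. So did 5 of the 14 named genes without a call (-0.22 to -0.04 as reported). Against 217 calls (94 higher, 123 lower), DESeq2 gave 491 (322 higher), voom 59 higher, RLE size factors 62 lower, no filter on low counts 886 (400 and 486), a length trend removed 153 higher, and a GC trend removed 79 (62 and 17). With all 12 libraries, LF included, edgeR called 0 genes (0 and 0) with 599 at an unadjusted p under 0.05, and 130 of the 217 kept an unadjusted p under 0.05 with the same sign. The cause of these differences was not tested. Leaving out 1 library gave 3 to 1472 calls (2 to 676 higher, 1 to 796 lower), 968 to 3383 for polysome mRNA and 0 to 1 for total mRNA. In these fits the lone library of a group was assumed to vary like the others. Of 48 named calls, 8, 3, 3, 12, 19, 44, 47 and 32 remained without total MF 1 and 2, total HF 1 and 2, polysome MF 1 and 2, and polysome HF 1 and 2. Polysome calls went from 2391 to 6 with all 12 libraries, 1076 with the GC trend removed and 707 with the 4 polysome libraries alone. Total mRNA calls went from 0 to 5 with DESeq2, 31 without a filter and 34 with the 4 total libraries alone.

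Deviations of same-numbered libraries correlated little between groups across genes (-0.15 to 0.034). With 2 libraries per group this cannot show whether same-numbered libraries came from the same culture. With the replicate block over the 8 libraries 59 genes were called (37 higher, 22 lower), with the block within dose 512 (222 and 290) and 7 in total mRNA, and with block and length trend 79 (59 and 20). Of the 48 named calls 26 remained under the first block and 48 under the second.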
